A study of Mus musculus with 8 samples.

Results

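Mir140, Mir139, Mir28a, Mir340 and Mir101a are 5 mouse miRNA genes that were more abundant in resting than in proliferating spleen B cells, both in total small RNA and in the RNA bound to AGO2. They were taken from 2202 miRNA genes in the deposited count tables by their RefSeq symbols, matched by exact mm10 coordinates, and they were chosen by their own levels, higher in resting input and in resting IP. For that reason the cell state differences given below are a description without a test. The tests concern the IP against the input, a comparison that the choice did not use. They rest on the same 8 libraries, however, and are not fully independent of the choice.

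All 8 libraries came from spleen B cells of Ago2HA/HA mice, whose AGO2 carries an HA epitope that an anti-HA antibody can precipitate. B cells were purified by removing CD43-bearing cells and were then either activated in culture to proliferate, with an agent that the labels do not name, or left resting. The 4 groups, each of 2 libraries, are the proliferating IP, the proliferating input, the resting IP and the resting input. Cells without the epitope gave no RNA after the IP and therefore no library, per the labels. No label tells if replicate libraries stem from different animals or from pooled ones, and each p-value therefore reflects only how far these libraries scatter, which could be technical scatter. Library totals ranged from 213418 to 1681148 counts, and 219 miRNA genes, all 5 among them, had enough counts to be tested. Levels are given as CPM, counts scaled to 1000000 per library with TMM factors, and each is a part of the counted miRNA pool. Among 5 miRNAs typical of B cells or lymphocytes, Mir150, Mir155, Mir181a-1 and Mir342 had counts in every group and Mir142 was at 0 in all. Whether this 0 reflects absence or the way reads were counted is unknown here. A feature named Mir142b did have enough counts to be tested. In such bulk samples, fewer cells of a type and less RNA per cell cannot be told apart.

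A miRNA gene is transcribed as a longer RNA that is cut to a hairpin and then to a short duplex, and AGO2 keeps 1 strand of it, which pairs with target mRNAs mainly through its seed, bases 2 to 8. The mature miRNA pool of a lymphocyte is remodelled after activation, with miR-150 known as a miRNA of resting lymphocytes and miR-155 as one induced by activation. miR-140 is best known from cartilage, where mice that lack it have skeletal defects. miR-139 and miR-340 are best known from human tumour studies, in which both were described as restraining growth. miR-28 has been described as a miRNA of germinal centre B cells that is lost in B cell lymphomas. miR-101 is known to target EZH2 in human cells and Icos in mouse T cells.

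The mature sequences are shown because the seed is what sets the targets of each miRNA, with bases 2 to 8 in capitals. They come from RefSeq (GRCm38.p6), which held 9 mature arms of the 5 genes. The arm miR-140-5p was not among them, so its seed and seed relatives were not compared.
miR-140-3p: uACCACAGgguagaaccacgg
miR-139-5p: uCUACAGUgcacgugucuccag
miR-139-3p: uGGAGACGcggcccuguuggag
miR-28a-5p: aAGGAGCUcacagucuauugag
miR-28a-3p: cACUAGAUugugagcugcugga
miR-340-5p: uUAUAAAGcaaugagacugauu
miR-340-3p: uCCGUCUCaguuacuuuauagc
miR-101a-3p: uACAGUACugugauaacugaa
miR-101a-5p: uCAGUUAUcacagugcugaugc
Among these arms no seed was shared between the 5 genes. Each count covers both arms of a hairpin, so the arm behind a value is unknown here.

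The relatives that matter for the comparison are miR-101b, which carries the miR-101a seed letters from base 3, and miR-708, which has the miR-28a-5p seed at bases 2 to 8. The seed letters of miR-101a-3p and miR-28a-5p are in capitals.
miR-101b-3p: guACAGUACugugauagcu
miR-708-5p: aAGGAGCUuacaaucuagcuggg
Aligned without gaps, miR-101b-3p was identical to miR-101a-3p at 17 of 18 bases and differed by A16G, counted from the 5′ end of miR-101a-3p. The 19 bases of miR-101c all lie within miR-101a-3p, so reads of Mir101c and Mir101a cannot be told apart by the mature sequence. How the counting treated reads that map to several places is not given in the sources used here, and Mir101a values are uncertain to that extent. Mir101c itself had 5 counts in all libraries together.

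All 5 genes lay within the span of a longer gene on the same strand, and none overlapped another miRNA feature. Mir140 (ENSMUSG00000065439.1; mm10 chromosome 8, 107551244 to 107551313, plus strand) lies in Wwp2, a ubiquitin ligase gene. Mir139 (ENSMUSG00000065446.1; chromosome 7, 101475376 to 101475443, plus strand) lies in Pde2a, a cyclic nucleotide phosphodiesterase gene. Mir28a (ENSMUSG00000065494.1; chromosome 16, 24827855 to 24827940, plus strand) lies in Lpp, a gene of a focal adhesion protein. Mir340 (ENSMUSG00000065417.1; chromosome 11, 50069702 to 50069799, plus strand) lies in Rnf130, a RING finger gene. Mir101a (ENSMUSG00000065451.1; chromosome 4, 101346945 to 101347027, minus strand) lies in the lncRNA gene E130102H24Rik. Gene spans do not separate exons from introns, so the position within these host genes is not given. None of the 5 had another tested miRNA gene within 10 kb, whereas 76 of the 219 tested genes (34.7%) did. The nearest tested neighbour was 455138 nt away for Mir140 and over 1 Mb away for the other 4.

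Together the 5 genes took 1.46% and 1.25% of the counts in the proliferating IPs and 1.58% and 1.68% in the proliferating inputs, against 3.93% and 3.72% in the resting IPs and 5.07% and 4.87% in the resting inputs. The libraries of the 2 states did not overlap. Mir140 had the highest count of the 5 in all 4 inputs, and Mir139 the lowest in all 8 libraries.

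Mir140 had 5834 and 6430 CPM in the proliferating IPs and 5088 and 5327 CPM in the proliferating inputs, against 22199 and 14717 CPM in the resting IPs and 31228 and 26116 CPM in the resting inputs. The resting inputs were highest, and each of the 4 groups lay apart from the next in order. In the resting inputs it ranked 10th and 12th of all miRNA genes by counts, with 3.11% (95% exact interval 3.05 to 3.17) and 2.75% of them. These intervals cover counting error only, here and below. For Mir140 and the genes below, that the resting groups lay higher follows from how the genes were chosen. The share of all tested genes with the 4 groups apart in this way is not given.

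Mir139 had 36.6 and 33.9 CPM in the proliferating IPs and 62.1 and 38.6 CPM in the proliferating inputs, against 582 and 388 CPM in the resting IPs and 386 and 358 CPM in the resting inputs. The groups again did not overlap, with the resting IPs at the top. Its proliferating levels rest on 25 and 40 counts in the IPs and on 22 and 11 counts in the inputs. The share in proliferating input replicate 2 was 0.00515% (95% exact interval 0.00257 to 0.00922), so the order of the proliferating groups is weakly determined.

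Mir28a had 4328 and 3734 CPM in the proliferating IPs and 1927 and 2371 CPM in the proliferating inputs, against 11864 and 9607 CPM in the resting IPs and 4548 and 4550 CPM in the resting inputs. All 4 groups lay apart, in the order resting IP, resting input, proliferating IP and proliferating input. Mir340, at a lower level, had 718 and 535 CPM in the proliferating IPs and 734 and 884 CPM in the proliferating inputs, against 2151 and 1570 CPM in the resting IPs and 1691 and 1505 CPM in the resting inputs. The 2 resting groups of Mir340 overlapped, while both proliferating groups lay below them.

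Mir101a had 6007 and 3860 CPM in the proliferating IPs and 4501 and 3974 CPM in the proliferating inputs, against 12476 and 13031 CPM in the resting IPs and 13068 and 13729 CPM in the resting inputs. The proliferating IP and input overlapped, and the resting groups lay next to each other. The spread within groups (pooled SD of log2 CPM) ranged from 0.17 for Mir28a to 0.31 for Mir139, below the median of 0.44 over all tested genes. That median includes genes with few counts, and the comparison was not matched for abundance.

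**Figure D1:**
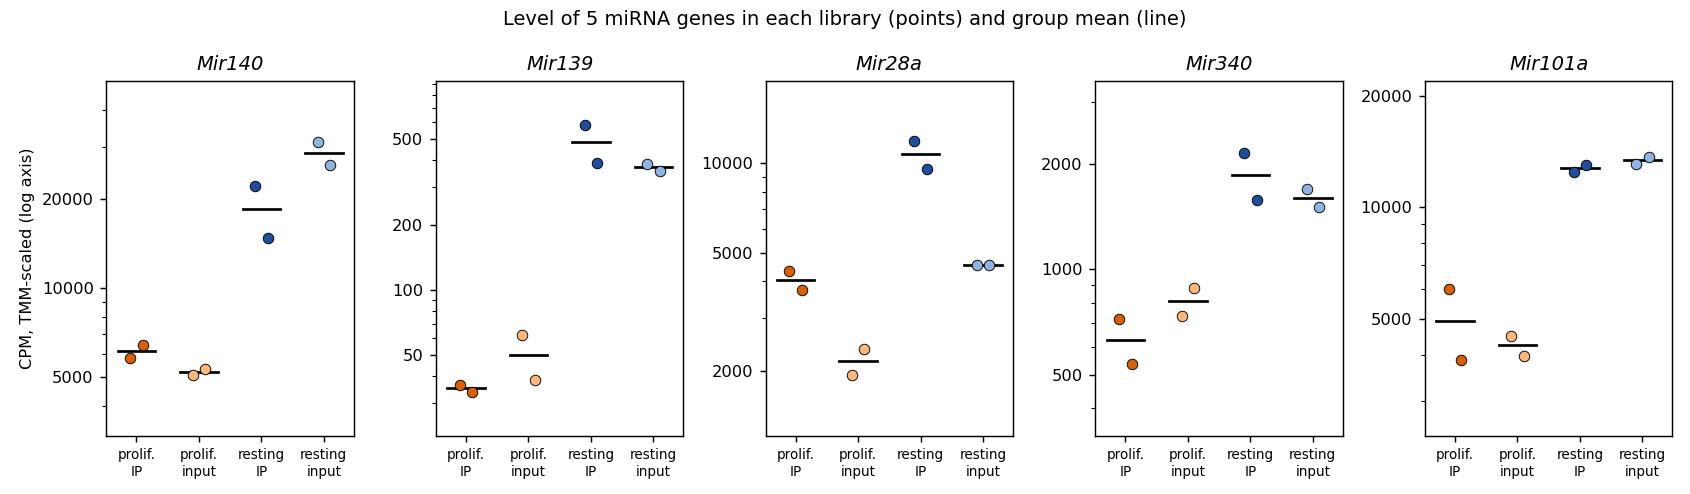
Level of each gene in CPM (log axis, scaled separately for each gene) in the 8 libraries, 2 points per group, with the group mean as a line. For all 5 genes both proliferating groups lie below both resting groups.

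In the input, the proliferating level of Mir139 was 13.7% of the resting level (log2 fold change -2.87, SE 0.45) and that of Mir140 was 18.2% (-2.46, SE 0.26). Mir101a was at 31.6% (-1.66, SE 0.26), Mir28a at 47.2% (-1.08, SE 0.27) and Mir340 at 50.6% (-0.98, SE 0.31). Of the 219 tested genes, 108 (49.3%) differed at an edgeR adjusted p under 0.05, 57 (26.0%) higher and 51 (23.3%) lower in proliferating input, and the 5 are among those 51 lower genes because they were chosen so. The split was 75 higher and 37 lower with library totals and 39 and 59 with upper-quartile factors. Without a test, 35.2% of tested genes had both proliferating inputs below both resting inputs and 43.4% had them above. The median log2 fold change was -1.66 over the 5 and 0.04 over all tested genes.

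In the IP, the order changed. Mir139 was again the lowest, with 7.27% of the resting level (log2 fold change -3.78, SE 0.44). The other 4 lay close together, Mir140 at 33.2% (-1.59, SE 0.25), Mir340 at 33.6% (-1.57, SE 0.31), Mir28a at 37.5% (-1.41, SE 0.27) and Mir101a at 38.7% (-1.37, SE 0.26). In this comparison 114 of 219 genes (52.1%) differed, 62 (28.3%) higher and 52 (23.7%) lower in proliferating cells, and 33 (15.1%) were lower in both input and IP. The split was 38 higher and 75 lower with upper-quartile factors and 48 and 70 with TMM factors made without the 10 most abundant features of each group. Both proliferating IPs lay below both resting IPs for 32.9% of tested genes and above them for 42.0%. Ordered by the smaller of the 2 differences, Mir139 was 6th, Mir140 16th, Mir101a 23rd, Mir28a 28th and Mir340 30th of those 33. For scale, Mir150 was at -3.54 in input and -2.77 in IP, and Mir155 at 3.37 and 3.65. The direction of all 5 genes in both comparisons was the same under each of the 19 alternative settings. These settings reuse the values that chose the genes, so this is no separate support for the direction. How many other tested genes kept their direction is not given here.

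**Figure D2:**
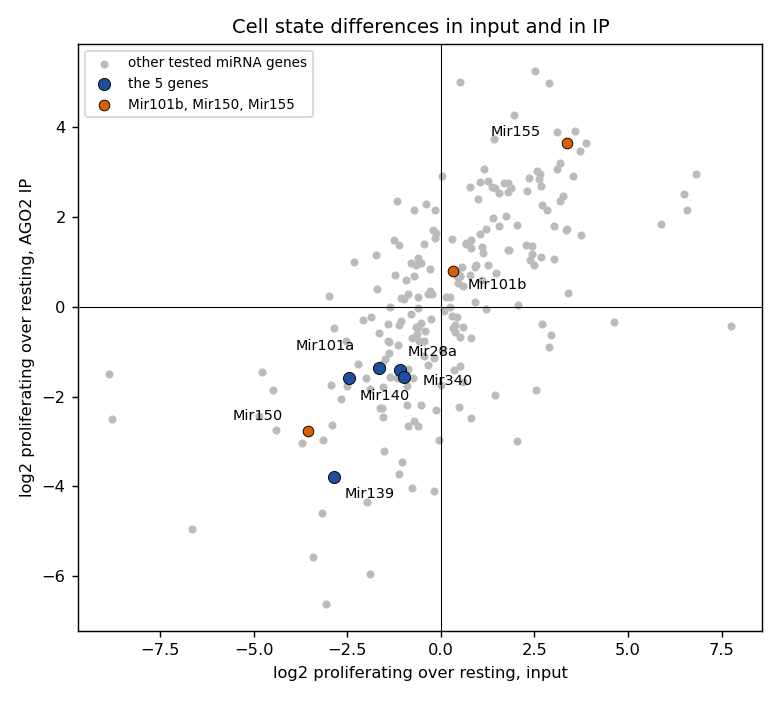
Log2 fold change of proliferating over resting cells in the input (x axis) and in the IP (y axis) for the 219 tested miRNA genes, with the 5 genes in blue and Mir101b, Mir150 and Mir155 in orange. The 5 genes lie left of and below 0 on both axes, and Mir139, at -3.78 in the IP, lies below Mir150, at -2.77. In the input the order is reversed, with Mir139 at -2.87 and Mir150 at -3.54.

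The profiles most like the 5, by Pearson correlation of log2 CPM over the 8 libraries, were for each of the 5 led by another gene that was lower in proliferating input and IP. Mir101a was most like Mir150 (r = 0.98), Mir340 most like Mir141 (r = 0.99), Mir28a most like Mir30b (r = 0.99) and Mir139 most like Mir16-1 (r = 0.98). Mir140 was most like Mir326 (r = 0.97), which had no count in the proliferating inputs, followed by Mir150 (r = 0.96). Among the 5, Mir28a stood least close to the rest, with r from 0.64 to Mir140 to 0.75 to Mir101a, while the other 6 pairs ranged from 0.89 to 0.96. All of these correlations share the split of the 8 libraries into 2 states.

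miRNAs typical of other cells differed between the states in both directions. The myeloid Mir223 took from 0.0695% to 0.106% of the counts in the proliferating IPs and from 0.221% to 0.339% in the proliferating inputs, against 1.45% to 2.94% in the resting IPs and 1.153% to 2.86% in the resting inputs. The epithelial list (5 of 5 with counts) summed to between 0.0380% and 0.0441% of the proliferating IPs, against 0.197% to 0.209% of the resting IPs, and to between 0.0586% and 0.0759% of the proliferating inputs, against 0.109% to 0.129% of the resting inputs. All 5 passed as lower in the proliferating IP. In the input Mir200a (-2.89, edgeR adjusted p = 4.5e-04) and Mir141 (-1.54, edgeR adjusted p = 8.4e-04) passed as lower. Mir429 (-1.52, edgeR adjusted p = 0.12), Mir200b (-0.78, edgeR adjusted p = 0.24) and Mir200c (-0.00024, edgeR adjusted p = 0.999) did not pass there. In the tests the erythroid Mir144 was lower in proliferating cells too, at -3.42 in input (edgeR adjusted p = 9.6e-05) and -5.58 in IP (edgeR adjusted p = 4.0e-08). Its proliferating levels rest on 3 and 3 counts in the IPs and on 5 and 5 in the inputs. Also listed as erythroid, Mir486 had no count in the IPs of either state and Mir451a was not matched. In the resting inputs Mir223 was 2.34 times as high in replicate 2 as in replicate 1. Each of the 5 genes differed by at most 1.20-fold between these libraries. In the resting IPs Mir223 was 1.70 times as high in replicate 2. Mir140, Mir139, Mir28a and Mir340 were there at 0.663 to 0.810 times their level in replicate 1, and Mir101a at 1.04 times. Each of these ratios compares only 1 library with 1 other, and what they mean for the source of the 5 genes was not tested. The platelet or endothelial Mir126a was instead higher in proliferating cells, with 0.0889% to 0.176% of the proliferating IPs, against 0.00613% to 0.0147% of the resting IPs (3.74 on the log2 scale, edgeR adjusted p = 2.8e-10), and 0.0626% to 0.0820% of the proliferating inputs, against 0.0173% to 0.0253% of the resting inputs (1.41, edgeR adjusted p = 0.0024). The hepatocyte Mir122 was higher in proliferating input (2.54, edgeR adjusted p = 0.027) and did not pass in the IP (-1.86, edgeR adjusted p = 0.064). It took 0.00609% to 0.00796% of the proliferating inputs, against 0.000836% to 0.00103% of the resting inputs. These resting shares lie near the floor of 3 counts, so its value in the input is weakly determined. Of the 9 stromal or muscle miRNAs, 8 had no count in the proliferating IPs and 6 none in the resting IPs, and Mir145a, Mir199a-2, Mir214, Mir1a-1, Mir133a-1 and Mir206 had none in either. Their summed share was 0.00151% to 0.00225% in the proliferating IPs and 0.00596% to 0.00809% in the resting IPs. In the inputs the states overlapped, at 0.000469% to 0.00181% in proliferating and 0.00129% to 0.00307% in resting cells. The part of these cells in the cell state differences was not tested.

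Of the genes related to the 5 by seed letters or by family name, 10 in all, 9 were in the tables, 6 had a count and 3 were tested: Mir101b, Mir151 and Mir5114. None of the 3 passed as lower in proliferating cells, where 51 of 219 tested genes (23.3%) did in input and 52 (23.7%) in IP. With shares of this size, a count over 3 genes says little about the relatives as a set. Mir101b, in contrast to Mir101a, had 14195 and 13572 CPM in the proliferating IPs and 9663 and 9582 CPM in the proliferating inputs, against 8559 and 7456 CPM in the resting IPs and 7745 and 7602 CPM in the resting inputs. Both proliferating groups lay above both resting groups. Mir101b rose in the proliferating IP by 0.79 on the log2 scale, with an SE of 0.25 (edgeR adjusted p = 0.0064), where 62 of 219 genes (28.3%) were higher. In the input it was at 0.33, with an SE of 0.25 (edgeR adjusted p = 0.26). The call in the IP was lost with upper-quartile factors (0.14, edgeR adjusted p = 0.64), with TMM factors made without the abundant features (0.35, adjusted p = 0.16), with no filter (0.58, adjusted p = 0.057) and without either proliferating input or either resting input (edgeR adjusted p from 0.096 to 0.29). Mir151, a miRNA whose sequence is related to miR-28, did not pass between the states in the IP (0.84, edgeR adjusted p = 0.11) or in the input (-0.28, edgeR adjusted p = 0.63). Mir5114, with 130 counts in all libraries, was at 0.68 in the IP (edgeR adjusted p = 0.51) and at 0.51 in the input (edgeR adjusted p = 0.68). Mir708, with the seed of miR-28a-5p, had 41 counts in all libraries, and Mir28b had 1.

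The ratio of Mir101a to Mir101b counts within a library needs no scaling between libraries. It was 0.423 and 0.284 in the proliferating IPs and 0.466 and 0.415 in the proliferating inputs, against 1.46 and 1.75 in the resting IPs and 1.69 and 1.81 in the resting inputs. Mir101a was thus counted more often than its relative in all 4 resting libraries and less often in all 4 proliferating ones. The mean ratio in the proliferating input was 0.252 times that in the resting input, and that in the proliferating IP 0.221 times that in the resting IP. This ratio was chosen after the values were seen, and its Mir101a term is part of what chose the 5 genes.

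AGO2 IP was then set against input, which asks whether a miRNA is over- or under-represented with AGO2. In proliferating cells 1 of the 5 genes rose, none fell and 4 did not pass, where 59 of 219 tested genes (26.9%) differed, 29 (13.2%) higher and 30 (13.7%) lower. In resting cells 1 rose, 1 fell and 3 did not pass, where 63 of 219 (28.8%) differed, 29 (13.2%) higher and 34 (15.5%) lower. The split was 16 higher and 60 lower in proliferating cells with library totals. In resting cells it was 33 higher and 23 lower with upper-quartile factors and 57 and 17 with TMM factors made without the abundant features. The median of the 5 was 0.22 in both states on the log2 scale, against 0.11 over all tested genes in proliferating and -0.05 in resting cells.

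Mir28a rose in the IP of both states. It averaged 4031 ± 420 CPM in the proliferating IP and 2149 ± 314 CPM in the proliferating input (mean ± SD, n = 2 here and below), 1.88 times as high in the IP (0.91 on the log2 scale with an SE of 0.27, edgeR adjusted p = 0.0093). In resting cells it averaged 10736 ± 1596 CPM in the IP and 4549 ± 1.21 CPM in the input, 2.36 times as high in the IP (1.24 on the log2 scale with an SE of 0.27, edgeR adjusted p = 2.9e-04). Every IP library lay above every input library of its state, as in 30.6% of tested genes in proliferating cells, with another 30.6% in the opposite order, and in 33.3% in resting cells, with 34.7% in the opposite order. The resting call held under all 19 alternative settings, with edgeR, DESeq2 or limma adjusted p of at most 0.0054. The proliferating call was lost with library totals in place of TMM (0.30, edgeR adjusted p = 0.32). It was also lost without proliferating input replicate 1 (0.67, edgeR adjusted p = 0.16), proliferating input replicate 2 (0.73, adjusted p = 0.13) or resting input replicate 1 (0.65, adjusted p = 0.11).

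Mir140 averaged 18458 ± 5290 CPM in the resting IP and 28672 ± 3614 CPM in the resting input. It fell to 64.4% of the input level there (-0.64 on the log2 scale with an SE of 0.25, edgeR adjusted p = 0.04998), a call that lay just under the threshold of 0.05 and held under 9 of 19 alternative settings. With TMM factors made without the abundant features it was at -0.0739 (edgeR adjusted p = 0.81). With the replicate number as a block the value was -0.64 (edgeR adjusted p = 0.054), and without resting input replicate 1 it was -0.32 (edgeR adjusted p = 0.61). The call was also lost without resting input replicate 2 (-0.65), proliferating IP replicate 2 (-0.55), proliferating input replicate 1 (-0.43) or proliferating input replicate 2 (-0.43). In proliferating cells Mir140 averaged 6132 ± 421 CPM in the IP and 5208 ± 169 CPM in the input (0.24 on the log2 scale with an SE of 0.25, edgeR adjusted p = 0.52).

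The remaining 3 genes did not pass in either state with TMM factors, and their values depended on the scaling. With library totals Mir139 (-1.13, edgeR adjusted p = 0.039) and Mir340 (-0.98, edgeR adjusted p = 0.013) passed as lower in the proliferating IP. With TMM factors made without the abundant features, Mir139 (0.94, edgeR adjusted p = 0.043) and Mir340 (0.78, edgeR adjusted p = 0.035) passed as higher in the resting IP. Mir101a kept its sign under 15 of 19 settings in proliferating cells and under 9 of 19 in resting cells. With TMM factors from all features, Mir139 was at -0.53 in proliferating cells (SE 0.47, edgeR adjusted p = 0.45) and at 0.38 in resting cells (SE 0.38, edgeR adjusted p = 0.47). Mir340 was at -0.37 (SE 0.31, edgeR adjusted p = 0.43) and at 0.22 (SE 0.31, edgeR adjusted p = 0.61). Mir101a was at 0.22 (SE 0.26, edgeR adjusted p = 0.56) and at -0.071 (SE 0.26, edgeR adjusted p = 0.87), with a 95% interval from the SE of -0.57 to 0.43 in resting cells. Among the relatives, Mir151 fell in the resting IP (-1.34 with an SE of 0.45, edgeR adjusted p = 0.0205), a call that held under 12 of 19 alternative settings and was lost, among others, without proliferating IP replicate 2 (-1.26), resting input replicate 1 (-1.29) or resting input replicate 2 (-1.09). The values of Mir139, Mir340 and Mir101a do not show that these 3 genes are equally represented in IP and input.

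**Figure D3:**
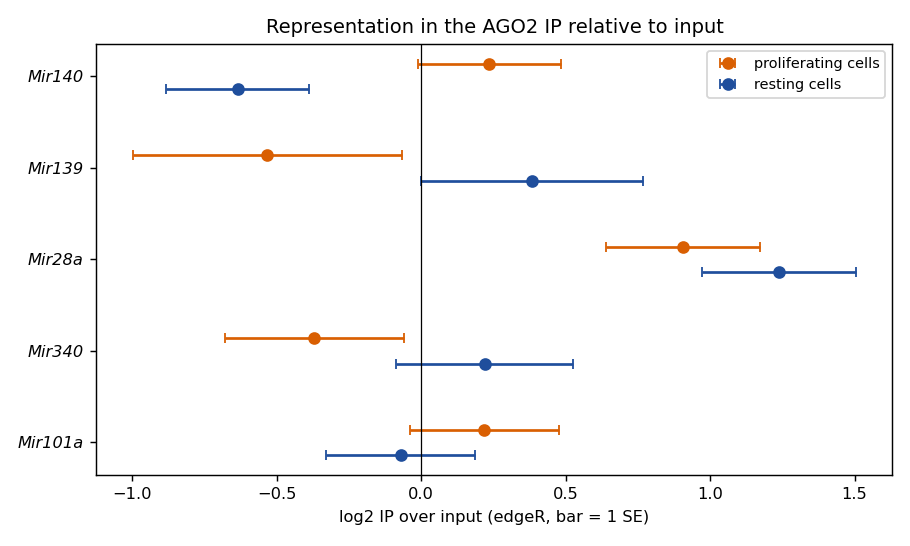
Log2 fold change of IP over input with 1 SE for the 5 genes, in proliferating cells (orange) and in resting cells (blue). Mir28a lies above 0 in both states, at 0.91 and 1.24, and Mir140 lies at 0.24 and -0.64.

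The difference of the IP over input log2 fold changes between proliferating and resting cells equals the difference of the 2 contrasts that chose the genes, and it is given without a test. It was 0.87 (SE 0.35) for Mir140, 0.29 (SE 0.36) for Mir101a, -0.33 (SE 0.37) for Mir28a, -0.59 (SE 0.44) for Mir340 and -0.92 (SE 0.60) for Mir139. Over all tested genes the median was 0.17, and 38 of 219 (17.4%) differed at an edgeR adjusted p under 0.05, 21 (9.59%) higher and 17 (7.76%) lower in proliferating cells. The split was 7 higher and 20 lower with library totals, 7 and 15 with upper-quartile factors and 7 and 28 with TMM factors made without the abundant features. The sign for Mir101a turned with 4 of 18 alternative settings, and that of the other 4 genes did not turn.

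Ratios to Mir140 within a library, again chosen after the values were seen, need no scaling either. The ratio of Mir28a to Mir140 counts was 0.742 and 0.581 in the proliferating IPs and 0.379 and 0.445 in the proliferating inputs. In resting cells it was 0.534 and 0.653 in the IPs and 0.146 and 0.174 in the inputs. The mean ratio was 1.61 times as high in the IP as in the input of proliferating cells and 3.71 times as high in resting cells, and in both states the libraries lay apart. Relative to Mir140, the mean ratios of Mir139, Mir340 and Mir101a were also higher in the resting IP than in the resting input, 2.02, 1.82 and 1.53 times, with the libraries apart. In proliferating cells the Mir139 ratio was instead lower in the IP, at 0.00577 ± 0.000702 against 0.00972 ± 0.00351. The Mir340 ratio was lower there too, at 0.103 ± 0.0282 against 0.155 ± 0.0153, and that of Mir101a was 0.815 in both. All these ratios share Mir140 as denominator, which was itself at 64.4% of its input level in the resting IP with TMM factors. The rises in the resting IP therefore partly repeat the Mir140 value and are not separate results.

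**Figure D4:**
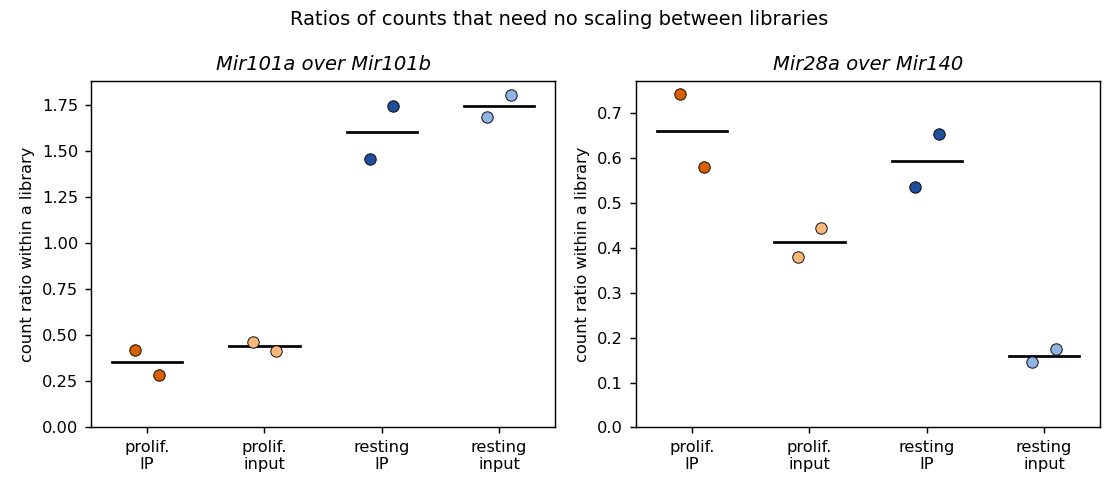
Ratio of raw counts of 2 miRNA genes within each library, 2 points per group with the mean as a line, for Mir101a over Mir101b (left) and Mir28a over Mir140 (right). Mir101a over Mir101b is below 0.5 in the proliferating libraries and above 1.4 in the resting ones, and Mir28a over Mir140 is higher in the IP than in the input of each state.

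**Figure D5:**
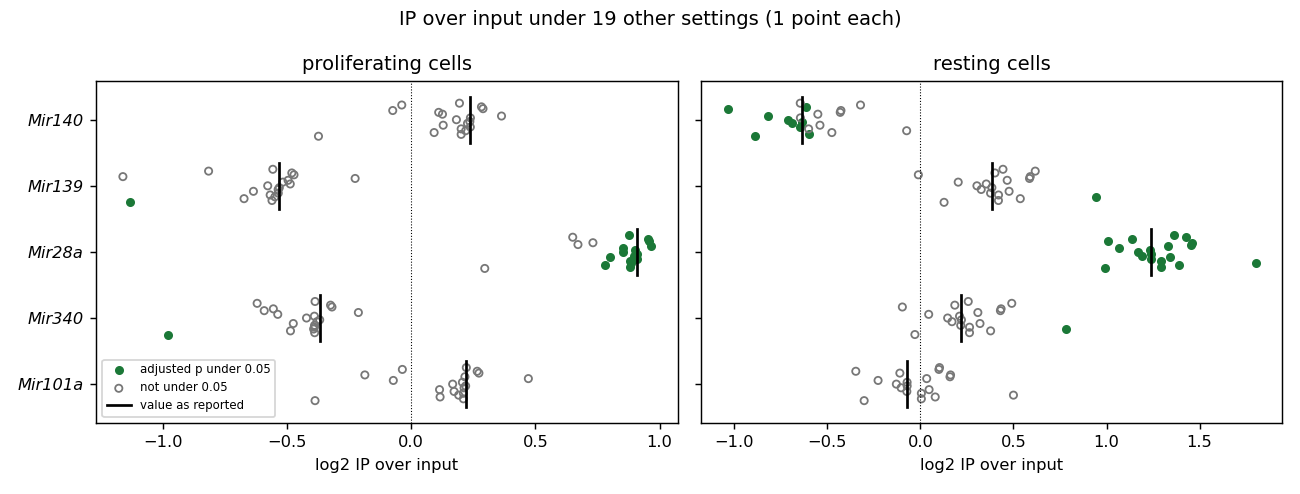
Log2 IP over input of the 5 genes in proliferating cells (left) and resting cells (right), with the reported value as a black line and each of 19 alternative settings as a point, filled where the adjusted p was under 0.05. All 19 points of Mir28a in resting cells are filled, and 15 of 19 in proliferating cells.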

How the data were processed

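AGO2 IP and input RNA of B cells went into small RNA libraries (QIAseq kit, per the labels). STAR 2.7.9a, SAMtools 1.15 and the mm10 build are named, per the submitters' processing notes. Deposited tables, 1 for each cell state, hold raw counts from deduplicated alignment files for each miRNA gene, per the file headers. Which program counted, with what strand rule, how multiply mapping reads were treated and whether deduplication used molecular identifiers is not given in the sources used here. Cell state and table coincide.

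Features were named by exact coordinates through RefSeq (1179 of 2202 named). Features were kept with filterByExpr (minimum count 10). edgeR 4.0.16 in R 4.3.3 fitted the 4 groups to all 8 libraries (TMM, quasi-likelihood test, 2-sided, Benjamini-Hochberg over 219 features). The residual degrees of freedom were 4 and the prior ones 36.6, so p-values rest largely on the spread shared over features. SE is the absolute log2 fold change over the square root of F. Shares have exact (Clopper-Pearson) 95% intervals. A count of 0 allows up to 3 counts, from 1.78 to 14.1 for each 1000000 counts by library, before TMM scaling. Replicate libraries were distinct: their chi-square over degrees of freedom was at least 7.74. No label says what a replicate number stands for, and deviations of same-numbered libraries correlated between -0.12 and 0.18, so the samples were not treated as paired; whether they share animals is unknown here. DESeq2 1.42.0, limma 3.58.1, other scalings, filters, a replicate block and leaving out each library were alternatives. The fit was tested on simulated counts.

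The 5 genes and the lists were chosen with earlier results of these data known. Named genes are the 5, their seed or family relatives, the most correlated tested feature of each, Mir150, Mir155 and marker miRNAs.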

Additional observations from a re-analysis of the deposited data

Results flagged for a closer look

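For Mir140 and Mir139, after TMM scaling, the IP libraries lay on opposite sides of the inputs in the 2 states, in every library. Mir140 was at 0.24 in proliferating and at -0.64 in resting cells (log2 IP over input), and Mir139 at -0.53 in proliferating and at 0.38 in resting cells. For Mir140 this depends on the scaling: with library totals it was at -0.37 in proliferating cells, and its share of counts was 0.502% and 0.551% in the proliferating IPs, against 0.653% and 0.712% in the proliferating inputs, the same direction as in resting cells. By share of counts, Mir139 overlapped in resting cells, at 0.0464% and 0.0368% in the IPs, against 0.0385% and 0.0378% in the inputs. The difference between the states was not tested, because it is made of the comparisons that chose the genes. Mir139 rests on 11 and 22 counts in the proliferating inputs. In proliferating cells 30.6% of tested genes lay with both IP libraries above both inputs and 30.6% below them. In resting cells these shares were 33.3% and 34.7%, so separation within a single state is common with 2 libraries a group. The share of tested genes that lay on opposite sides in the 2 states is not given here.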

How the results depend on the processing

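Each result was recomputed under 19 alternative settings, 8 of which leave out 1 library. Scaling moved all genes together: the median of all tested genes shifted by -0.61 (proliferating) and -0.24 (resting) in IP over input with library totals, by 0.57 in resting cells with TMM on libraries without the 10 most abundant features of each group, and by -0.67 in proliferating over resting IP with upper-quartile factors. In proliferating cells, library totals gave Mir28a 0.30 (no longer passing), Mir140 -0.37 and Mir101a -0.39 (sign turned), and Mir139 -1.13 and Mir340 -0.98 (now passing), and Mir101b -0.0799. In resting cells, the TMM factors without abundant features gave Mir140 -0.0739 (not passing), Mir139 0.94 and Mir340 0.78 (now passing) and Mir101a 0.50. Mir140 in resting cells also lost its call with upper-quartile factors (-0.48), DESeq2 (-0.60), no filter (-0.54) and the replicate block (-0.64, pairing being a shared number only). Mir340 in resting cells turned to -0.0296 with library totals. Mir101a in resting cells turned to 0.0052 with RLE factors and with DESeq2, 0.0796 with upper-quartile factors and 0.0466 with no filter. Mir101b turned in resting cells to -0.18 with library totals and -0.0048 with only the libraries compared, and in proliferating over resting input to -0.0392 with upper-quartile factors. Mir151 turned to 0.0866 in proliferating IP over input with limma-voom and to 0.0836 in proliferating over resting input with library totals. The count of differences between the states in IP over input was 25 with RLE and 22 with upper-quartile factors, against 38. The causes of these changes beyond the shift of scale were not tested. The block changed no other call of the 5 genes.

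Leaving out each library gave from 30 to 63 calls for IP over input in proliferating cells, from 45 to 72 in resting cells and from 11 to 46 for their difference. In proliferating cells Mir140 ranged from -0.0747 to 0.36, Mir139 from -1.16 to -0.23, Mir28a from 0.65 to 0.97, Mir340 from -0.62 to -0.21 and Mir101a from -0.19 to 0.47. In resting cells Mir140 ranged from -1.03 to -0.32, Mir139 from -0.0111 to 0.62, Mir28a from 1.01 to 1.46, Mir340 from -0.0969 to 0.49 and Mir101a from -0.35 to 0.16. Mir101b ranged from -0.112 to 0.284 in resting cells, and Mir151 from -0.971 to 0.606 in proliferating IP over input and from -1.318 to 0.367 in proliferating over resting input. A library left alone in its group was assumed to vary like the other groups. Mir139 in proliferating inputs is limited by its low counts.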
